A study of Homo sapiens with 4 samples.

Results

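Peaks deposited from an H3K9me3 experiment were described over 10 cadherin genes and the 250 kb on either side of each. Whether both lists hold peaks of the antibody samples is not settled by the labels. The cells were of the U2OS line, which was derived long ago from a human osteosarcoma. The genes were CDH18, CDH12, CDH10 and CDH6 on chromosome 5, CDH8, CDH11 and CDH13 on chromosome 16, and CDH2, CDH20 and CDH7 on chromosome 18. They were chosen by name and by their hg19 position, given to the nearest 10 kb, and all 10 were found in both deposited peak lists. No measured value entered the choice, but earlier results of these data were known when it was made. The bodies added up to 4.23 Mb, and they were set beside 11815 windows of 225 kb, the median length of the bodies, laid end to end over chromosomes 1 to 22.

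Chromatin was cross-linked and precipitated with an antibody against H3K9me3 from Abcam in 2 samples, and 2 input samples had no antibody. All 4 samples came from U2OS cells whose labels carry the name KRAB-IDR3-TCF3, which is not explained further, and no label gives another genotype, treatment or clone. The data were 2 broad peak lists on hg19. The labels tie list 1 to the input samples and list 2 to the antibody samples, whereas the names of the peaks call each list an immunoprecipitation. Neither list was therefore given to a group, and no contrast of antibody with input was made. The authors' fold enrichment of a peak was at least 1.44 among the 326823 peaks of list 1 and at least 1.90 among the 265052 of list 2. A peak list has no read counts, so the depth behind every value is unknown, no value has a replicate error, and no test between conditions was possible. DNA copy number was not measured here, and no value was adjusted for it.

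Classical cadherins are membrane proteins that join cells through calcium-dependent contacts between their outer domains and are held to the actin skeleton by catenins inside the cell. CDH2 encodes N-cadherin, the type I cadherin of neural and mesenchymal cells, and CDH11 encodes OB-cadherin, a type II cadherin of osteoblasts and other mesenchymal cells. CDH6, CDH7, CDH8, CDH10, CDH12, CDH18 and CDH20 are other type II cadherins, most of them known from the nervous system, with CDH6 also known from the kidney. CDH13 encodes T-cadherin, which has no inner domain and is held in the membrane by a lipid anchor. H3K9me3 is the histone mark of constitutive heterochromatin that HP1 proteins bind, and the series title concerns its local density. Transcript levels were not measured, so which of these genes the cells expressed is not known from these data.

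The label of gene-poor stretches was looked at only through the order of genes, and gene density was not measured. In the order of protein-coding genes of RefSeq (GRCh38.p14, used for order only), CDH18 and CDH12 were direct neighbours, as were CDH8 and CDH11. Between CDH12 and CDH10 lay 1 gene, PRDM9, and between CDH10 and CDH6 lay 2, of which CDH9 is another cadherin. Between CDH20 and CDH7 lay 20 genes. The neighbours of CDH13 were MPHOSPH6 and HSBP1, and the gene before CDH2 was CHST9. Other genes of the set also had a neighbour outside the cadherins, such as H3Y1 for CDH18 and GOT2 for CDH8. The gene after CDH2 was DSC3, a desmosomal cadherin.

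Promoter sequences of RefSeq (GRCh38.p14) were found for 7 of the 10 genes and are shown for 4 whose starts differed in cover. CDH2 had no peak around its start, CDH10 had few in the first 10% of its body, CDH8 was the only gene of the 4 whose first 10% was covered more than its body in both lists, and CDH7 had the promoter richest in CG. Each runs from 250 bases before to 50 bases after a start, 5′ to 3′ on the coding strand, with CG dinucleotides in capitals. Where the table holds several starts of a gene, that with the most CG is shown. They lie at chr18:28177081-28177380 and chr5:24644929-24645228 on the minus strand, chr16:62036389-62036688 on the minus strand and chr18:65750762-65751061 on the plus strand, and were not placed on hg19.
CDH2 promoter: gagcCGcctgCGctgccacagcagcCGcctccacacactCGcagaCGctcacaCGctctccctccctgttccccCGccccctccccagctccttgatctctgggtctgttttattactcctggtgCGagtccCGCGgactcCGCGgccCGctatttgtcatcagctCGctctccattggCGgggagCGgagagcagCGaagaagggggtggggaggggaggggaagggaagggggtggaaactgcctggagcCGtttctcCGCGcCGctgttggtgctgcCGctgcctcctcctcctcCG
CDH10 promoter: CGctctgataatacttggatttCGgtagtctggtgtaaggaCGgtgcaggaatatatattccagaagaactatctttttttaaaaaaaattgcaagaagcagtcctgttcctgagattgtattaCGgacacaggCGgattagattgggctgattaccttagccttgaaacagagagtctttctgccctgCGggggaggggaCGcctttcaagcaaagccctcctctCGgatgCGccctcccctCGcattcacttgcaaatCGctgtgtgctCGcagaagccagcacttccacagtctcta
CDH8 promoter: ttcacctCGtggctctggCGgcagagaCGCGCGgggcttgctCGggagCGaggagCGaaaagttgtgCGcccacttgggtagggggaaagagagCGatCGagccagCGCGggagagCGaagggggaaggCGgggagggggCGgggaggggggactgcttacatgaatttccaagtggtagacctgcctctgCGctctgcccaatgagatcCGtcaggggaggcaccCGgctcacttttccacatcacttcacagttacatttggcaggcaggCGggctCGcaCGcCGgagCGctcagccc
CDH7 promoter: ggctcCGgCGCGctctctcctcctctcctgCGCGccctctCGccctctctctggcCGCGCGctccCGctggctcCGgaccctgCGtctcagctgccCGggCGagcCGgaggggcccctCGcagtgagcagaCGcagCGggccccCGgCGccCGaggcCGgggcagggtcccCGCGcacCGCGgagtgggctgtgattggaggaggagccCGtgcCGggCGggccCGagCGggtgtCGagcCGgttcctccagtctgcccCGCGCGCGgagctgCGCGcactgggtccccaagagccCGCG
The letters CG occurred 23 times in the promoter of CDH2, 12 times in that of CDH10, 24 times in that of CDH8 and 41 times in that of CDH7. The motif reads the same on both strands, and 96.0% of the 35116 RefSeq promoters of this length hold it at least 1 time, with a median of 14. The promoter of CDH7 stood at percentile 93.3 of all promoters by this count, and that of CDH10 at 46.9. The other start of CDH7 had 7 and stood at percentile 36.8, and the other start of CDH2 had 4, at 24.5. CDH10 had 1 start only, so showing the start with the most CG raises the genes with several. Over all 14 entries of the 7 genes the count ran from 1 to 41, with the lowest at a start of CDH12.

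The cadherin bodies ranged from almost free of peaks to densely covered by the deposited peaks. Peaks were listed down to a −log10 p of 1.02 in list 1 and 1.58 in list 2. Only 0.194% and 2.08% of all peaks had a q-value of at most 0.05, so cover here is mostly that of peaks above this limit. CDH2 was almost free of peaks, CDH11 and CDH8 were covered less than the median window, and CDH6, the kidney and neural cadherin, was covered most. Over the 10 bodies the median covered share, the part of the base pairs under a peak, was 61.4% in list 1 and 29.7% in list 2. The median window was covered 49.6% and 23.7%.

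CDH6 (31.19 to 31.33 Mb) had the highest share of the 10 in each list, 75.1% and 51.7%. Of all windows of its length, 82.9% and 85.5% were covered less. CDH13 (82.66 to 83.83 Mb), the longest gene of the set at 1170 kb, followed with 68.8% and 36.6%. Its chromosome was sparser, with a median window of 44.5% and 18.3% against 58.4% and 31.6% on chromosome 5.

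The genes of the middle of the order lay close together in list 1. CDH20 (59.0 to 59.22 Mb) was covered 62.8%, CDH18 (19.47 to 19.99 Mb) 62.1%, CDH7 (63.42 to 63.55 Mb) 61.5%, CDH12 (21.75 to 22.85 Mb) 61.3% and CDH10 (24.49 to 24.65 Mb) 56.5%. In list 2 the same genes were spread more widely, at 27.8%, 31.7%, 34.4%, 36.1% and 23.1% in the same order. CDH10, a type II cadherin of the brain, was the lowest of them in both lists, and it was at percentile 59.3 of the windows of its length in list 1 and 49.4 in list 2. With no replicates, the order among these 5 genes cannot be told from error.

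The cadherins of 16q21 were sparser. CDH8 (61.69 to 62.07 Mb) was covered 40.5% and 12.3%, at percentiles 35.2 and 21.6 of the windows of its length. CDH11 (64.98 to 65.16 Mb), the osteoblast cadherin, was covered 35.6% and 9.68%, at percentiles 30.2 and 20.3. Against windows of chromosome 16 alone they stood higher, at percentiles 49.0 and 38.2 for CDH8 and 43.2 and 34.4 for CDH11. The genes of chromosome 5 stood lower on their own chromosome, with CDH10 at percentiles 47.1 and 37.1, CDH18 at 60.7 and 50.6, CDH12 at 59.4 in each list, and CDH6 at 74.3 and 78.6.

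CDH2 (25.53 to 25.76 Mb) was covered 3.26% in list 1 and 0.310% in list 2, at percentiles 1.54 and 1.27 of the windows of its length. Its body held 8 peaks in list 1, which covered 7.51 kb, and 2 in list 2, which covered 0.714 kb. No base pair of CDH2 lay under peaks of both lists. Of the 8 peaks of list 1, 4 were at the lowest fold of that list, and the widest, 2.74 kb, had a fold of 1.52 (25637134 to 25639870). The peaks of list 2 had folds of 1.90 (25598057 to 25598429) and 2.46 (25618216 to 25618556). The peak-free part of the body reached 58.6 kb in list 1 and 141 kb in list 2, where it ran up to the start of the gene.

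The ranking was alike in both lists, with the same gene at 6 of the 10 ranks. Spearman's rho of the covered shares was 0.879 over the 10 genes, a description of lists that may share libraries and that come from the same cells. Body length did not order the genes, with rho of 0.0182 in list 1 and 0.0788 in list 2, over the same 10 genes.

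**Figure D1:**
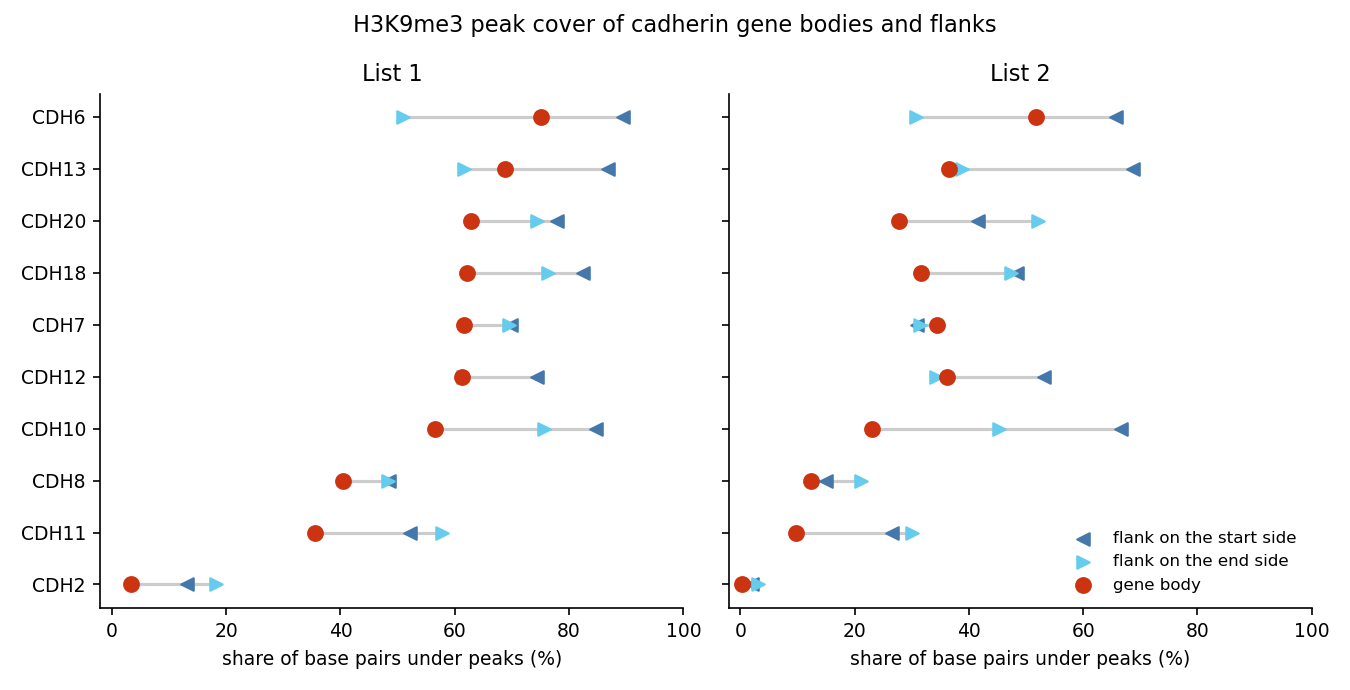
Share of base pairs under peaks (x axis, %) for each gene body (red circles) and its flanks of 250 kb on the start side (dark triangles) and the end side (light triangles), in list 1 (left) and list 2 (right), 1 value per gene and list. The body lies left of both flanks in 8 genes in list 1 and in 7 in list 2, and CDH2 lies near 0 with its flanks.

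Bodies were covered less than the adjoining DNA in most of the genes. The covered share of the body was divided by that of both flanks together, and a body was called lower at a ratio of at most 1/1.2 (0.833) and higher at a ratio of at least 1.2. In list 1, 5 of 10 bodies were called lower (CDH2, CDH11, CDH10, CDH18 and CDH20), against 27.3% of all windows set against their own flanks in the same way. In list 2, 8 of 10 were called lower, the same 5 with CDH8, CDH12 and CDH13, against 36.2% of the windows. In both lists at the same time, 5 of 10 genes and 25.1% of the windows were called lower. No body was called higher in either list, against 24.2% of the windows in list 1 and 30.8% in list 2. At any size of difference, 9 bodies in list 1 (49.0% of the windows) and 8 in list 2 (51.7%) lay below their flanks. With only peaks at least 1 kb wide, 6 of 10 bodies were lower in list 1, a setting for which the share of windows was not computed. Stricter use of the peaks in other ways changed the count in list 1 to 8 of 10. That number was found with peaks above the median fold of the list (34.5% of the windows), with base pairs under peaks of both lists (37.7%) and with peaks at or above the lowest −log10 p of list 2 (44.3%). In list 2, 7 of 10 were lower with peaks above the median fold (41.6% of the windows). The median ratio was 0.830 in list 1 and 0.671 in list 2, beside 1.00 and 0.985 over the windows.

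CDH11 had the lowest ratio after CDH2 in both lists. Its body was covered 35.6% in list 1 between flanks of 57.7% and 52.2%, a ratio of 0.648, and 9.68% in list 2 between flanks of 30.1% and 26.6%, a ratio of 0.342. Of the windows, 14.5% and 8.20% had a lower ratio. The flanks of this osteoblast cadherin were thus covered on both sides at more than the median window of its chromosome.

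CDH10 came next. In list 1 its body was covered 56.5% between flanks of 75.6% and 84.6%, a ratio of 0.706. In list 2 the body was covered 23.1% between 45.3% and 66.7%, a ratio of 0.412 with 11.0% of the windows lower. CDH10 and CDH11 are both short genes of the set, at 160 and 180 kb. The still shorter CDH7 (130 kb) and CDH6 (140 kb) had higher ratios, of 0.884 and 1.10 for CDH7 and of 1.07 in both lists for CDH6.

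With all deposited peaks CDH2 had the lowest ratio of the 10 genes, but in surroundings that were themselves nearly bare. Its flanks were covered 18.3% and 13.2% in list 1 and 3.02% and 2.12% in list 2, and the ratios were 0.207 and 0.121. The value of list 2 rests on 0.714 kb of peaks in the body. With peaks above the median fold CDH2 was not the lowest in either list. Its ratio was then 0.647 in list 1, above CDH11 (0.405) and CDH10 (0.546), and 0.178 in list 2, above CDH11 (0.0163).

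CDH18 was covered 62.1% between flanks of 76.4% and 82.5% in list 1, and 31.7% between 47.3% and 48.4% in list 2, with ratios of 0.782 and 0.661. RefSeq also holds a start of CDH18 at chr5:20575664-20575963 (GRCh38.p14, not placed on hg19), beyond the end that the rule gives. The start-side flank, covered 82.5% and 48.4%, may therefore lie within a longer form of CDH18. CDH20 gave ratios of 0.825 and 0.594, and the value of list 1 lies just past the threshold. CDH8 was just short of it in list 1 (0.836) and past it in list 2 (0.680). CDH12 had 0.903 and 0.826, but the latter was 1.08 with flanks of 100 kb, so the call of CDH12 in list 2 depended on the width of the flanks. It was also lost at 500 kb (0.886), as was that of CDH13 in list 2 (0.833, just above the limit). In list 1, flanks of 100 kb ended the calls of CDH18 (0.867) and CDH20 (0.919) and brought in that of CDH13 (0.811). Leaving out the outer 10 kb of each body and moving its flanks outwards by 10 kb also ended the call of CDH20 in list 1 (0.846) and brought in that of CDH8 (0.793). Of the 5 genes called lower in both lists, CDH2, CDH11 and CDH10 kept the call with each flank width and with the shortened bodies. CDH12 in list 1 turned above its flanks at both other widths, to 1.06 at 100 kb and 1.04 at 500 kb. CDH8 in list 2 turned to 1.09 when only peaks above the median fold of the list were used.

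For CDH13 and CDH6 the flanks themselves differed. CDH13 was covered 68.8% in list 1 between 86.8% on its start side and 61.6% on its end side, and 36.6% in list 2 between 68.8% and 38.8%. CDH6 was covered 75.1% between 89.4% on its start side and 50.9% on its end side in list 1, and 51.7% between 65.8% and 30.7% in list 2. Its ratio of 1.07 in both lists is thus a mean over unlike flanks, with the start side covered more than the body and the end side less. With flanks of 100 kb and 500 kb the ratio of CDH6 turned below 1, to 0.935 and 0.975 in list 1 and to 0.919 and 0.920 in list 2. CDH7 was the other gene at or above its flanks, in list 2 only, at 34.4% between 31.0% and 31.5% (ratio 1.10). In list 1 CDH7 was covered 61.5% between 69.9% and 69.4%.

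**Figure D2:**
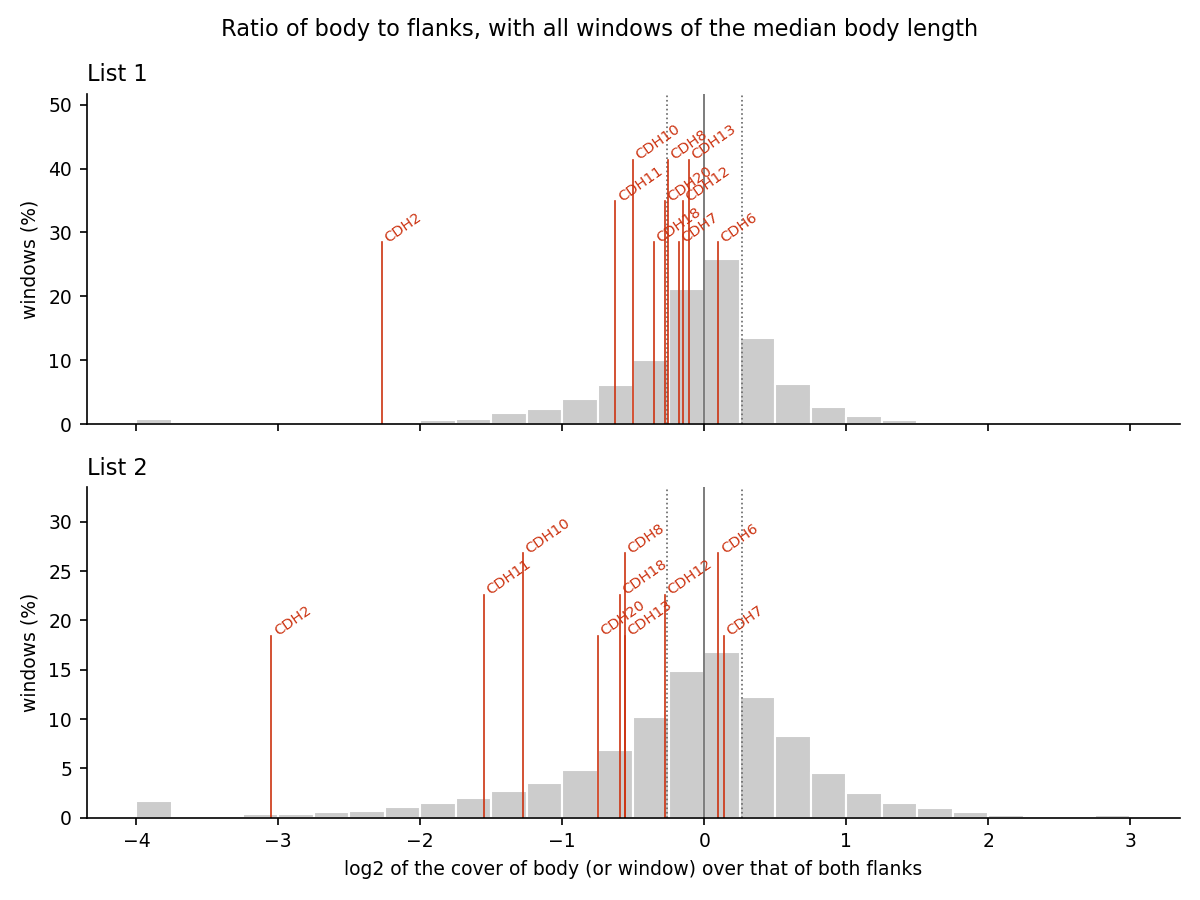
Distribution of the log2 ratio of the covered share of a window to that of its flanks over all windows of 225 kb on chromosomes 1 to 22 with a covered flank (grey bars, % of windows, values beyond the axis put in the outermost bars), with the ratio of each cadherin gene as a red line, in list 1 (top) and list 2 (bottom). Dotted lines mark the thresholds of 1.2 and 1/1.2, and CDH2, CDH11 and CDH10 lie farthest to the left in both lists.

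The sparse block around CDH2 was far wider than the gene. Moving outwards from the body in windows of 100 kb, the first window at or above the median of chromosome 18 (49.8% in list 1 and 21.9% in list 2) came after 4800 kb on the lower side and after 3400 kb on the upper side, at the same windows in both lists. The block from 20730001 to 29160000 spanned 8.43 Mb, with a covered share of 12.7% in list 1 and 2.80% in list 2. The block ends by construction where a window first reaches the median, so a step at each edge is built in. In list 1 the cover rose from 22.2% in the outermost 100 kb of the block to 69.0% in the next on the lower side, and from 19.4% to 60.1% on the upper side. In list 2 the steps were from 10.5% to 27.3% and from 10.5% to 23.8%. Beyond the lower edge the next 1 Mb was covered 54.4% and 31.5%, above the medians of the chromosome. Beyond the upper edge the next 1 Mb was covered 38.0% and 17.1%, below those medians, so cover there stayed low past the first windows.

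On a fixed grid of 100 kb windows, the run below its chromosome's median that holds CDH2 was the longest of all 3291 runs in list 1, at 8.4 Mb, and of all 3371 runs in list 2, at 8.6 Mb. The next longest were 6.8 Mb on chromosome 7 in list 1 and 7.3 Mb on chromosome 8 in list 2. Peaks within the block had a median fold of 1.49 in list 1 and 1.99 in list 2, under the medians of the whole lists, 1.64 and 2.12. Within the block the body of CDH2 was still low, at 0.252 times the cover of the rest of the block in list 1 and 0.108 times in list 2. Of the 82 windows of 100 kb around the body, 5 in list 1 and 14 in list 2 were covered less than the body. In list 2, 13 of these 14 windows held no peak at all. Whether DNA copy number, sequence that reads map to poorly or the genes of this block have a part in its low cover was not tested.

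None of the other 9 genes lay in such a block. The first 100 kb window beside the gene was at or above the median of its chromosome on both sides in 7 of them, and for CDH12 and CDH8 at most 200 kb on the other side lay below it. CDH11 was a dip of the size of the gene. The first window on either side reached the median of chromosome 16 in both lists (42.7% in list 1 and 16.9% in list 2). Dips as deep occurred nearby, such as 26.4% in list 1 and 6.61% in list 2 in the 100 kb at −3.25 Mb from its middle.

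**Figure D3:**
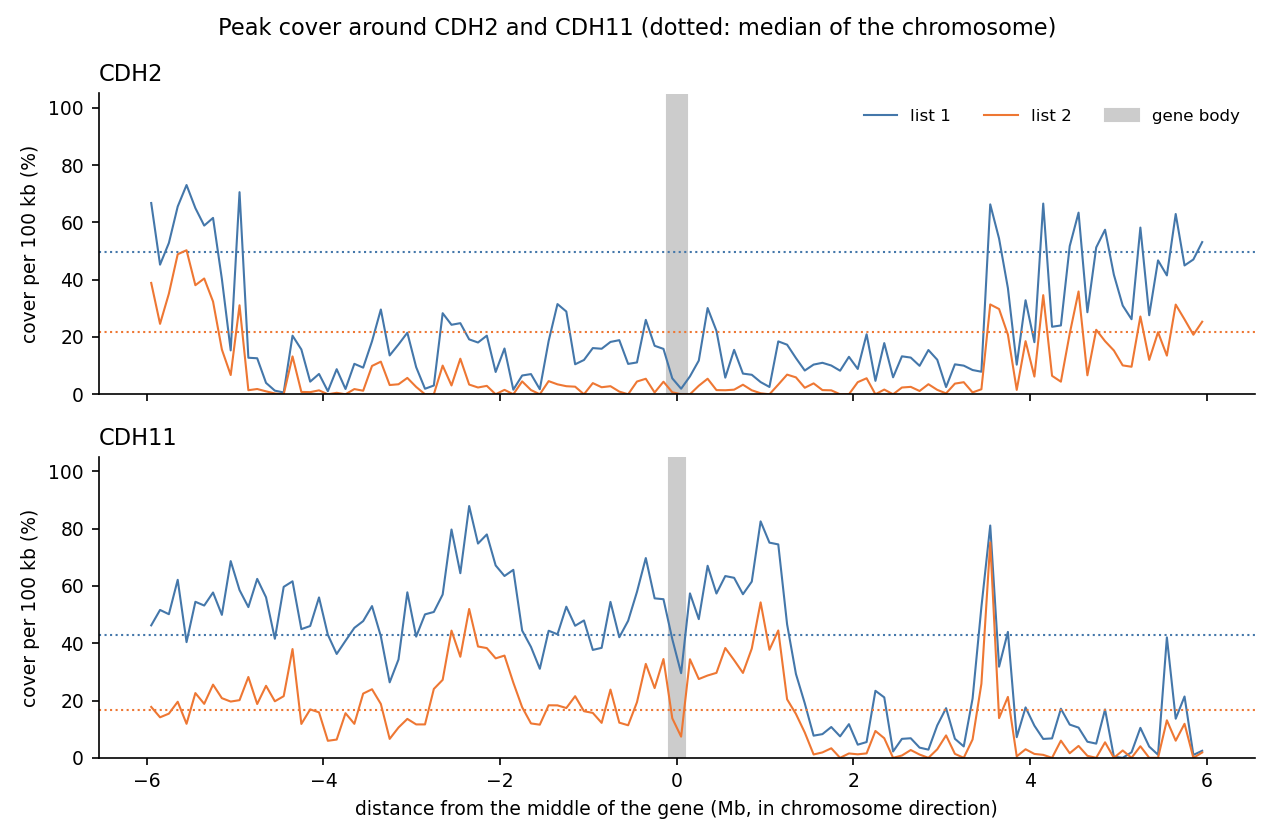
Share of base pairs under peaks per window of 100 kb (y axis, %) against the distance from the middle of the gene (x axis, Mb, in chromosome direction) for CDH2 (top) and CDH11 (bottom), in list 1 (blue) and list 2 (orange), with the gene body in grey and the median of the chromosome as a dotted line per list. CDH2 lies inside a low block of 8.43 Mb, beyond which cover is uneven on the upper side, with windows above and below the median. The low cover at CDH11 has about the width of the gene. Single windows on the lower side are as low, and another low stretch farther up the chromosome does not adjoin the gene.

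Starts of the genes were covered less than their bodies. Genes were turned in the direction of transcription for this comparison, and the zones were chosen after the profiles had been seen. In the 20 kb around the start, 9 of 10 genes were covered less than in the body in each list, the exceptions being CDH8 in list 1 and CDH13 in list 2. Of the windows, 49.3% in list 1 and 54.8% in list 2 had less cover in the 20 kb around their border than inside. The median over the genes was 43.6% in list 1 and 12.4% in list 2 around the start, against 56.5% and 27.2% in the 20 kb around the end. Around the end only 4 of 10 genes were covered less than their body in each list.

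CDH10 and CDH6 showed the widest contrast between the first 10% and the rest of the body. The first 10% of CDH10 was covered 8.36% in list 1 and 0% in list 2, against 61.9% and 25.6% over the rest. Upstream of it the nearest 50 kb were covered 76.6% and 68.9%, and the 10 kb next to the start 49.4% and 19.7%. Within the body the longest peak-free stretch of CDH10 ran from 24630259 to 24648663 in list 1 and from 24620403 to the start of the gene in list 2. The first 10% of CDH6 was covered 20.4% and 9.80%, against 81.2% and 56.4% over the rest.

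CDH11 had 13.3% in list 1 and 0% in list 2 in the 20 kb around its start, and 61.8% and 25.4% around its end. CDH20 was covered 53.2% and 3.18% around its start, and a peak of list 1 lay across the start itself. CDH8 was the only one with a peak across its start in both lists. The first 10% lay below the whole body in 7 of 10 genes in list 1 (49.0% of the windows) and 8 in list 2 (54.1%). Positions of starts are those of the rule, rounded to 10 kb, and genes such as CDH18, CDH12 and CDH8 have further starts in RefSeq.

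CDH12, a brain cadherin of 1100 kb, was split into a densely and a sparsely covered part. In list 1 the 50% of the body nearest its start had a covered share of 83.7% and the 50% nearest its end 39.0%. In list 2 these were 53.2% and 19.0%. The difference was larger than in 97.5% of 2410 windows of that length in list 1 and than in 95.6% in list 2. This comparison was chosen after the data had been seen, and CDH12 had the highest percentile of the set in both lists. CDH7 was next, at percentiles 67.7 and 65.8 of windows of its own length. The lowest were 1.67 for CDH20 in list 1 and 5.92 for CDH2 in list 2. Picking the most extreme gene of the set favours a high percentile, so those of CDH12 are a description only. The longest peak-free stretch of CDH12 lay on the end side, from 22150077 to 22196119 (46.0 kb) in list 1 and from 22123521 to 22192014 (68.5 kb) in list 2. The widest peak of CDH12 in list 1, 42.2 kb, lay on the start side (22597580 to 22639775).

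**Figure D4:**
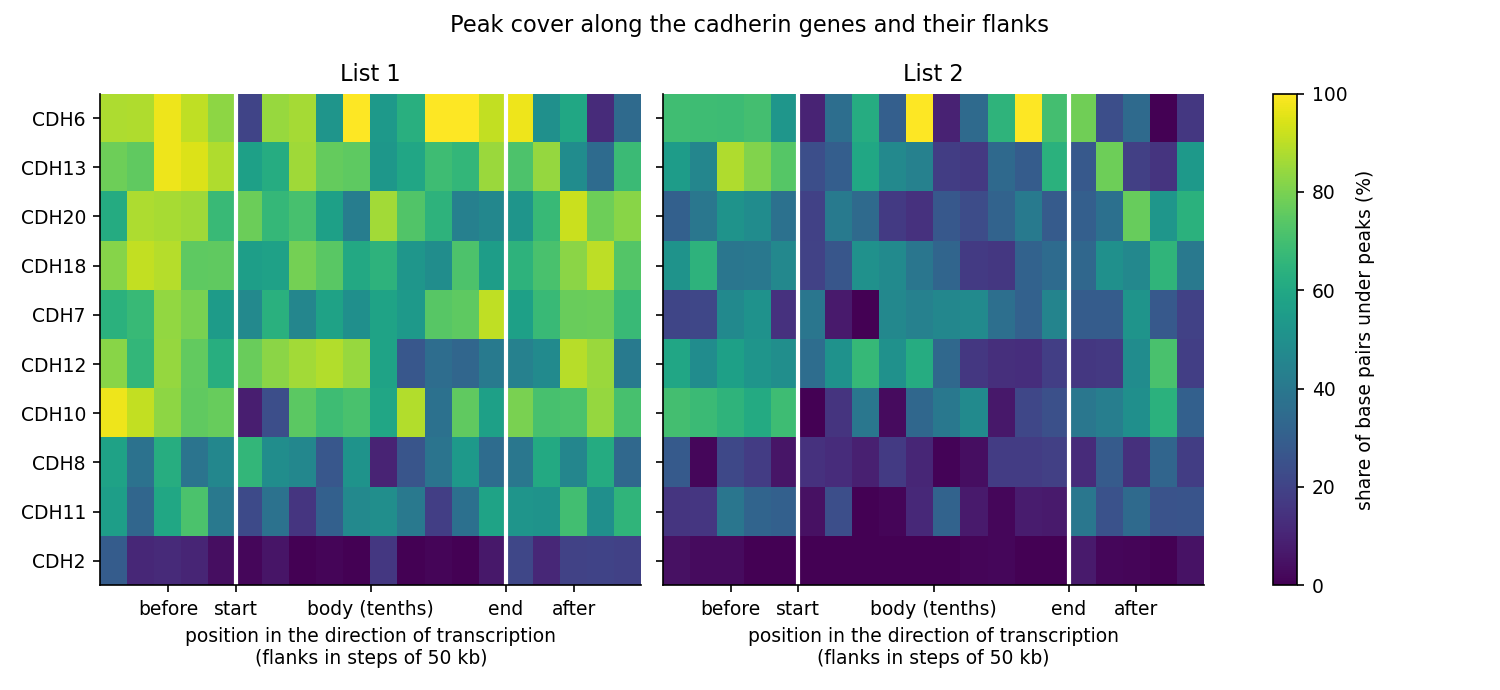
Share of base pairs under peaks (colour, 0 to 100%) along each gene in the direction of transcription, in 10 equal steps of the body between the white lines and in 5 steps of 50 kb on either side, in list 1 (left) and list 2 (right), with genes in the order of their cover in list 1. The row of CDH2 is dark throughout, CDH12 changes from light to dark along its body, and CDH10 and CDH6 are dark just after the start.

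Few peaks within the bodies had a q-value of at most 0.05, a limit set here, as in the lists as a whole. The bodies held 533 peaks in list 1 and 513 in list 2. Of these, 0 in list 1 and 7 in list 2 had an authors' q-value of at most 0.05, against 0.194% and 2.08% of all peaks of the lists, and CDH18, CDH12 and CDH10 held 2 each and CDH13 held 1. None had a −log10 q of 2 or more in either list. The highest fold in a body was 3.22 in list 2, in CDH10 (24580649 to 24582017), and 2.43 in list 1, in CDH18 (19838908 to 19850744). The median fold was above that of the whole list (1.64 and 2.12) in 7 genes in list 1 and in 3 in list 2. Those of list 2 were CDH6, CDH18, by a hair (2.12027 against 2.11974), and CDH2, which held only 2 peaks. CDH6 had the highest median fold in both lists, 1.79 and 2.31, and also the widest peaks, of 45.3 kb in list 1 (31280065 to 31325331) and 25.0 kb in list 2 (31295232 to 31320220), which overlapped. Peaks were narrowest in the sparse genes, with a median width of 1422 bp in list 1 and 790 bp in list 2 in CDH11. The medians were 1447 and 1031.5 bp in CDH8, and 654.5 and 357 bp in CDH2. In CDH6 they were 2446 and 2452 bp, and the highest median in list 1 was that of CDH20, 3143 bp.

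The cover shared by the lists was lowest in the sparse genes, but among the others it did not keep to the order of density. In CDH6, the other list overlapped 66.5% of what list 1 covered and 96.7% of what list 2 covered, and the Jaccard index, the shared length over that covered in either, was 0.651. It was 0.489 in CDH12, 0.434 in CDH13 and 0.419 in CDH18. CDH8 had 0.193, with 21.1% of its list 1 cover and 69.4% of its list 2 cover shared, CDH11 had 0.167 and CDH2 had 0. CDH7 had 0.379 and CDH10 0.366, while CDH20, covered more than CDH10 in both lists, had 0.345. Over the 10 genes the median was 0.373, beside 0.470 over chromosomes 1 to 22. These indices move with the covered shares and with the different limits of the lists.

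The DNA between neighbouring cadherin genes was covered more than both genes in 2 of 4 stretches, in both lists. How often other stretches of the genome exceed the windows at both their ends was not computed, so this count is a description only. The stretches also hold flanks already set against these genes, so they are not separate from the ratios above. The stretch of 2.91 Mb between CDH8 and CDH11 was covered 54.8% in list 1 and 24.2% in list 2, more than either gene (40.5% and 35.6% in list 1, 12.3% and 9.68% in list 2). The 1.64 Mb between CDH12 and CDH10 were covered 75.0% and 48.6%, again more than either gene. The 1.76 Mb between CDH18 and CDH12 were covered 56.3% and 33.7%, below both genes in list 1 and between them in list 2. Part of that stretch may lie within a longer form of CDH18, which has a RefSeq start at chr5:20575664-20575963 (GRCh38.p14, not placed on hg19). The 4.20 Mb between CDH20 and CDH7 were covered 58.7% and 31.7%, below both genes in list 1 and between them in list 2.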

How the data were processed

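Libraries of 2 kinds, H3K9me3 immunoprecipitation and input, were made from U2OS cells. The submitters' processing notes name MACS2 2.2.7.1, Bowtie2 2.5.0, Trim Galore 0.6.7 and bcl2fastq 2.17 with the build hg19, but not what each did. Cutoff, control and pooling of the peak calls are not stated there. The authors deposited a fold (a ratio over the caller's background), a −log10 p and a −log10 q per peak, which were used only to describe or filter peaks. Read counts were not used here, so depth is unknown.

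Covered shares were the base pairs of a body, flank or window under the peaks of a list. Windows whose own span or flanks touched a stretch of at least 1 Mb without a peak in either list were left out of the background. A body was called lower or higher at a ratio to its flanks of 1/1.2 or 1.2. Members and comparisons were chosen with earlier results of these data known. All 10 genes are named, in full where they had the highest or lowest share or ratio. Strands came from the RefSeq promoter table for 7 genes and from general knowledge for CDH6, CDH11 and CDH13. Other cadherins were not analysed here, as hg19 positions were used only as the rule gives them. Alternatives changed the peaks used, the flanks, the gene ends, the windows and the overlap. The covered length was tested on simulated data. Python 3.11.15 was used with matplotlib 3.10.9, scipy 1.17.1, pandas 2.3.3 and numpy 2.4.6.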

Additional observations from a re-analysis of the deposited data

How the results depend on the processing

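No paired analysis was possible because neither list of peaks was given to a sample. With only peaks at −log10 q of at least 2, the covered share was 0% in all 10 bodies of both lists. Flanks held such peaks beside 0 genes in list 1 and beside 3 in list 2, whose ratios were therefore 0, and no call was made from them. With list 1 held to the p limit of list 2 (whole peaks removed), the median covered share of list 1 fell to 8.19%, its median ratio was 0.369, 8 bodies were lower (44.3% of the windows), 1 was higher (CDH8, 1.24), and the median Jaccard index was 0.114. With peaks above the median fold, the median shares were 44.6% and 17.1%, 8 bodies of list 1 were lower (34.5% of the windows), and list 2 had a median ratio of 0.518 and 1 higher body (CDH7, 1.29). With base pairs in both lists, the median share was 24.8%, the median ratio 0.626, and 8 bodies were lower (37.7% of the windows). CDH12 in list 2 turned to 1.08 with flanks of 100 kb and CDH8 in list 2 to 1.09 with peaks above the median fold. The cause of these changes was not tested. Of the list 2 peaks in the bodies, 91.4% overlapped list 1, and 16.4% with at least 50% of each peak shared. CDH10, CDH11, CDH18, CDH20 and CDH2 stayed below their flanks under each alternative with a ratio, in both lists. Without CDH2, an alternative chosen after seeing the data, the median ratios were 0.836 and 0.680. The comparison within bodies, start zones and outward windows were also chosen then.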
